A study of Mus musculus with 38 samples.

Results

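Expression of 8 genes that code for surface and surface-associated proteins of endothelium and early mesoderm was followed in mouse embryonic stem cells: Kdr, Flt1, Eng, Robo4, Mmrn2, Pecam1, Vcam1 and Icam1. They were named as a group and kept if they had any counts in the 38 libraries. Chosen by that summed count, 7 of the 8 remained of 22408 genes with counts, in a table of 55385 genes; Eng was listed at 0 in every library. No other measured value entered the choice, but the names were proposed with earlier results of these libraries known, so the values below describe these genes and are not independent evidence that such genes respond more than others.

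The libraries are stranded total RNA. The growth text, the same for all samples, describes wild-type cells of the 129S6/SvEvTac background kept in serum with leukemia inhibitory factor on gelatin. BRM014 blocks the ATPases BRG1 (Smarca4) and BRM (Smarca2), the motors of SWI/SNF chromatin remodelling. In the first batch (26 libraries, 13 groups of 2), all cells were wild type. Vehicle (DMSO) and an inactive analog (10 uM) each had a 1 h and a 24 h group, and BRM014 (10 uM) was sampled at 30 min and at 1, 3, 6 and 24 h. In the short washouts, 1 h of exposure to BRM014 was followed by 30 min or 1 h without it; in the long ones, 24 h of exposure was followed by 6 h or 24 h. In the second batch (12 libraries, 6 groups of 2), every group lasted 24 h, with vehicle or BRM014 (10 uM) on wild type and on lines labelled Ino80ko (the ATPase of the INO80 remodeller) and Snf2hko (Smarca5, the ATPase of ISWI). Both compounds were delivered in DMSO, which the vehicle groups share. For the washouts the dose is not labelled. Among the samples there is no group of washed vehicle, nor of vehicle at 30 min, 3 h or 6 h. In the washout comparisons, added time, washing and removal of BRM014 therefore cannot be told apart. How the knockout lines were made, and from how many clones, is not given in the sources used here. Replicates are called biological in the labels, with no word on what was kept separate, so p-values measure the spread between these libraries, part of which may be technical.

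Endothelial cells arise from mesoderm, and Kdr, the main signalling receptor for VEGF-A, is among the first surface proteins of the mesodermal cells that give rise to blood and vessels. Flt1 binds the same ligand with high affinity and signals weakly, so that it can act as a trap. Robo4 and Mmrn2 mark vessel stability: Robo4 is a receptor of the roundabout family restricted largely to endothelium, and Mmrn2 is a secreted glycoprotein of the endothelial matrix that binds VEGF-A. Pecam1 holds endothelial cells together by binding itself and is also a surface protein of undifferentiated mouse embryonic stem cells. Vcam1 and Icam1 are ligands for leukocyte integrins that inflamed endothelium displays under NF-kB, and Vcam1 is also found on mesodermal derivatives such as the allantois. Eng is a co-receptor for ligands of the TGF-beta family.

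On GRCm38, in the GENCODE M21 annotation, Kdr lies at chr5:75932827-75978458 on the minus strand (29 merged exons) and Flt1 at chr5:147561604-147726011 on the minus strand (33 merged exons). Robo4 lies at chr9:37401897-37415115 on the plus strand (16 merged exons), Mmrn2 at chr14:34375465-34404287 on the plus strand (7 merged exons) and Pecam1 at chr11:106654217-106750628 on the minus strand (17 merged exons). Vcam1 lies at chr3:116109949-116129688 on the minus strand (10 merged exons), Icam1 at chr9:21015985-21028817 on the plus strand (7 merged exons) and Eng at chr2:32646595-32682669 on the plus strand (14 merged exons). All 8 are protein-coding, and counts refer to their exons. An antisense gene shares 61 exonic bases with Vcam1 (Gm43109) and another shares 511 with Icam1 (Gm47079). Fpgs, on the opposite strand, shares 61 exonic bases with Eng. The library kit keeps strand, but whether the counting used it is not given in the sources used here, so reads of these pairs cannot be told apart. A listing at 0 also occurs for genes that embryonic stem cells use, such as Smarca4, so nothing can be said of Eng expression.

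Promoter sequence was available for 4 of the 7 genes in a RefSeq table on GRCm38.p6. It is shown for the genes that had an entry, and no link from sequence to response was tested. All 4 were above DMSO 24 h at 6 h of washout after 24 h of BRM014, Kdr the most. Under BRM014 in wild type, Robo4 falls, Flt1 changes little, and Icam1 dips and recovers. Each line ends at the base before the start, taken as the more upstream of the RefSeq and GENCODE starts. That is the RefSeq start for Icam1, the GENCODE start for Kdr and Robo4, and the same base for Flt1. Lines read in the direction of transcription. Capitals are for matches on either strand to TGACGTCA (the CRE), TATAAA, GGAANTTCC (a kappaB-like site), GGGCGG (the GC box) or CCGGAA (an ETS-type site).
Kdr: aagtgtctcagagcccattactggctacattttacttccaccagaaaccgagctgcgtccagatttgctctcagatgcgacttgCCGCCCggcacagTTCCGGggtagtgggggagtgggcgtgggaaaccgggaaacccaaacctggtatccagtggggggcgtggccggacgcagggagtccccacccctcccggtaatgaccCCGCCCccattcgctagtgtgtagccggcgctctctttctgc
Robo4: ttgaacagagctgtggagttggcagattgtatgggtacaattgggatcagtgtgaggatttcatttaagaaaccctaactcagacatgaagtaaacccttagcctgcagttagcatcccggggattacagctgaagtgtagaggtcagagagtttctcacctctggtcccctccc
Flt1: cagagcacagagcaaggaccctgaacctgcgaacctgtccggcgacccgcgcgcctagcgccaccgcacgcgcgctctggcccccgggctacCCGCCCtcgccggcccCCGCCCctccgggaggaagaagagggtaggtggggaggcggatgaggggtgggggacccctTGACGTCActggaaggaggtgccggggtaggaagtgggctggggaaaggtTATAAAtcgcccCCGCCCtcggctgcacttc
Icam1: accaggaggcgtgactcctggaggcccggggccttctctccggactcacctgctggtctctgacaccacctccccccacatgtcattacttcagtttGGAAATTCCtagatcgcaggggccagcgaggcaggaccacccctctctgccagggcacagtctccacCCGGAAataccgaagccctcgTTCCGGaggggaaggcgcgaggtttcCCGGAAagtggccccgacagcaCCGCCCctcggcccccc

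The Kdr window is chr5:75978459-75978705 on the minus strand. It holds 247 bases with 61.5% G and C, 16 CpG, GC boxes 163 and 42 bases before the start and a CCGGAA match 150 bases before it. The Flt1 window, chr5:147726012-147726261 on the minus strand, is the richest in G and C (70.4% of 250 bases, 23 CpG), with a CRE 81 bases and a TATAAA 31 bases before the start and GC boxes at 158, 142 and 19. The Icam1 window, chr9:21015690-21015939 on the plus strand, holds 65.2% G and C and 15 CpG, a kappaB-like match 153 bases before the start, CCGGAA matches at 86, 65 and 39 and a GC box at 17. The Robo4 window, chr9:37401722-37401896 on the plus strand, stands apart from the other 3, with 47.4% G and C over 175 bases, 1 CpG and no match to these motifs, nor to AGATAA, ATGCAAAT or GGAATG. Over 32851 promoter windows of 250 bases the median was 52.4% G and C and 6 CpG. The CRE was in 1.55% of them, TATAAA in 12.4%, the kappaB-like motif in 0.813%, the GC box in 32.7%, CCGGAA in 12%, AGATAA in 9.99%, ATGCAAAT in 1.6% and GGAATG in 12.6%. A match is a description of the letters in the window, and the windows of Kdr and Robo4 are shorter than those of the background.

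Libraries held 19349695 to 23053021 counts in the first batch and 21948010 to 44453556 in the second. The 19 replicate pairs correlated at 0.993 or above on log2 CPM, 0 of them were identical, and each pair differed beyond sampling noise. Smarca4 and Smarca5 were listed at 0 in all libraries, so the Snf2hko label could not be checked. Ino80 was at 119 and 124 CPM in the libraries labelled Ino80ko with DMSO, at 169.8 and 170.1 in wild type and at 121 and 126 in those labelled Snf2hko. Its level thus did not set the Ino80ko libraries apart from the Snf2hko ones, and the position of the lesion is not given, so the genotypes below are those of the labels. The 10 pluripotency markers, all with counts, summed to between 5732 and 7745 CPM. The 10 endothelial markers summed to between 12.3 and 76.5 CPM, with Emcn, Cldn5 and Egfl7 listed at 0; the 10 blood markers summed to between 5.25 and 68.9 CPM, with Ptprc and Itga2b listed at 0. These sums, and those of other lists below, are not weighted, so the most abundant gene of a list can carry its sum. By the median over all libraries that gene was Lama1 for primitive endoderm (2011 CPM) and Krt18 for trophoblast (95.9). For endothelium it was Tek (16.7) and for blood Runx1 (10.8). The name of the group says where these genes are best known, not which cells were sequenced. In bulk RNA, fewer cells of a type and less RNA per cell cannot be told apart.

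Levels spanned a wide range among the 7 genes. Per length, Icam1 was the highest in wild-type cells with 24 h of DMSO in the first batch (45.5 ± 1.06 RPKM, SD, n = 2), followed by Pecam1 (16.4 ± 0.242), Mmrn2 (7.99 ± 0.156), Flt1 (1.38 ± 0.245) and Robo4 (1.01 ± 0.0229). Kdr (0.264 ± 0.0443 RPKM) and Vcam1 (0.0244 ± 0.00942 RPKM) were at the bottom. In the second batch the order of the top 2 and bottom 2 was the same and Mmrn2 was at 2.50 ± 0.0956 RPKM. Vcam1 rested on 6 and 3 counts in the vehicle libraries of the first batch at 24 h and on 3 and 7 in those of the second. It passed the filter on low counts through the groups where it is high, and its folds against vehicle are imprecise. All 7 genes with counts passed the filter in each batch. Below, levels are CPM, changes are log2 ± standard error, and a gene passed the test at an adjusted p under 0.05 over all genes fitted. There were 2 libraries per group unless stated.

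**Figure D1:**
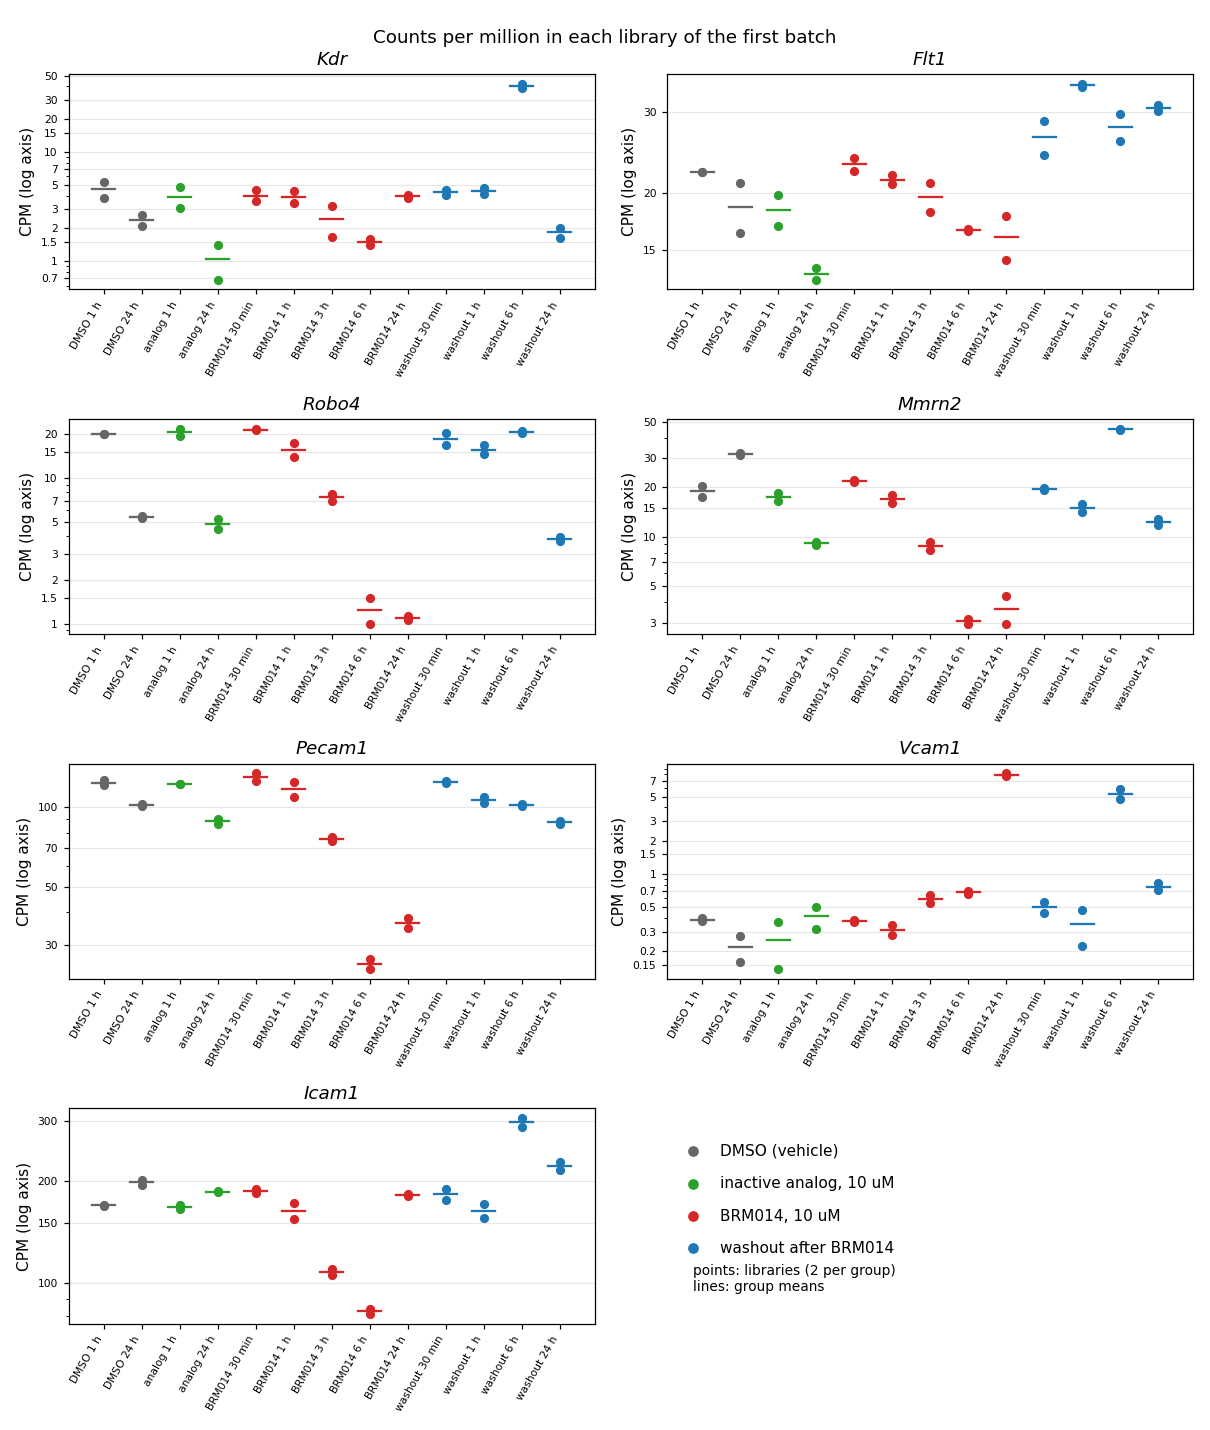
CPM of each gene (log axis) in the 26 libraries of the first batch, by group; points are libraries and lines are group means. Under BRM014, Mmrn2 and Pecam1 lie below every vehicle library from 3 h and Robo4 does so from 6 h. At 3 h Robo4 lies between DMSO 1 h and DMSO 24 h. Vcam1 is high at 24 h of BRM014 and at 6 h of washout. Kdr stands at 38.7 and 42.2 CPM at 6 h of washout against at most 5.35 in every other library shown.

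The first hour of BRM014 gave no call among these genes. At 30 min, 0 of 7 passed the test, where 0% of all genes passed; 1 had an unadjusted p under 0.05 (Icam1) and DESeq2 called 0. At 1 h, again 0 of 7 passed, where 0.599% of all genes did; 1 had an unadjusted p under 0.05 (Robo4) and DESeq2 called 0. Robo4 was at 17.4 and 13.9 CPM after 1 h of BRM014 against 20.1 in both DMSO libraries (-0.37 ± 0.12, adjusted p = 0.239). The changes of the other 6 at 1 h lay between -0.30 (Vcam1) and -0.06 (Flt1 and Icam1).

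By 3 h, 4 of the 7 had fallen against the mean of DMSO 1 h and 24 h (Mmrn2, Icam1, Pecam1 and Robo4) and none had risen; 31.2% of all genes passed in either direction (15.5% higher and 15.7% lower). Mmrn2 was at 8.28 and 9.27 CPM, against 17.4 and 20.4 with DMSO for 1 h and 31.3 and 32.2 with DMSO for 24 h (-1.48 ± 0.11, adjusted p = 1.94e-11). Icam1 was at 110.3 and 105.5 CPM, against 170.2 and 168.6 with DMSO for 1 h and 201.7 and 195.2 for 24 h (-0.76 ± 0.05, adjusted p = 1.63e-11). For both genes the 3 h libraries lay below every vehicle library. Pecam1 did so too, at 74.4 and 77.1 CPM against vehicle libraries between 100.8 and 126 (-0.57 ± 0.06, adjusted p = 1.73e-08). Robo4 was at 6.999 and 7.72 CPM, between the DMSO libraries at 1 h (20.1 in both) and those at 24 h (5.28 and 5.45). Its change of -0.50 ± 0.13 (adjusted p = 0.00323) therefore depended on the vehicle: against DMSO 24 h alone it was 0.46 (adjusted p = 0.0229) and against DMSO 1 h alone -1.45 (2.85e-09). The Robo4 call was also lost without 3 h replicate 1 (0.0652). Kdr, at 1.68 and 3.24 CPM, was called lower against DMSO 1 h alone (-0.88, adjusted p = 0.0157) or without 3 h replicate 2 (-0.98, 0.0288), and Vcam1, on 11 and 14 counts, higher against DMSO 24 h alone (1.41, 0.0306) or without DMSO 24 h replicate 1 (1.25, 0.0498). Against BRM014 1 h, 4 of 7 were lower, where 13.3% of all genes passed (5.83% higher and 7.45% lower): the same 4 genes, with Robo4 at -1.08 ± 0.14 (adjusted p = 1.72e-06); Kdr joined them without 3 h replicate 2 (-1.22, adjusted p = 0.0214) or without the filter on low counts (-0.64, 0.0294).

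At 6 h all 7 passed, 6 lower and Vcam1 higher, where 48.4% of all genes passed (24.9% higher and 23.5% lower). The falls were deepest for Robo4, Mmrn2 and Pecam1. Robo4 was at 1.503 and 0.987 CPM (-3.05 ± 0.21, adjusted p = 3.12e-14), Mmrn2 at 3.14 and 2.96 CPM (-3.00 ± 0.14, adjusted p = 8.47e-17) and Pecam1 at 24.3 and 26.6 CPM (-2.14 ± 0.06, adjusted p = 8.43e-20). Each of these 3 was below every vehicle library, and against the mean of both vehicles the fitted falls were 8.27-, 8.02- and 4.41-fold. For Robo4 the fall was 4.27-fold against DMSO 24 h alone and 16.02-fold against DMSO 1 h alone. Icam1 had fallen to 81.1 and 84.1 CPM (-1.15 ± 0.05, adjusted p = 1.31e-15). The VEGF receptors moved less: Kdr was at 1.41 and 1.60 CPM (-1.13 ± 0.28, adjusted p = 0.00106) and Flt1 at 16.5 and 16.6 CPM (-0.29 ± 0.11, adjusted p = 0.0252). Vcam1 was at 0.663 and 0.705 CPM, 15 counts in each library, against 3 to 9 counts in the 4 vehicle libraries (1.21 ± 0.39, adjusted p = 0.00998). Against DMSO 24 h alone the Kdr and Flt1 calls were lost (adjusted p = 0.0914 and 0.29), and against DMSO 1 h alone the Vcam1 call was lost (adjusted p = 0.124); the Flt1 call was also lost without either 6 h library (adjusted p = 0.122 and 0.0933) or without DMSO 24 h replicate 2 (0.0996), and the Vcam1 call without 6 h replicate 2 (0.0657). Between 3 h and 6 h, 4 of 7 were lower (Robo4, Pecam1, Mmrn2 and Icam1), where 21.6% of all genes passed (10.3% higher and 11.3% lower), and Robo4 changed most (-2.55 ± 0.22, adjusted p = 3.08e-10). Kdr was called over this interval without 3 h replicate 1 (-1.11, adjusted p = 0.0186) or without the filter (-0.73, 0.0317).

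At 24 h the genes divided. With the 8 wild-type libraries of both batches and batch as a term, 5 of 7 passed, where 49.6% of all genes did (24.8% higher and 24.8% lower): Robo4, Mmrn2 and Pecam1 were lower, and Vcam1 and Kdr higher. Vcam1 was at 8.13, 7.77, 9.26 and 8.85 CPM after BRM014, 152 to 372 counts, against 0.275, 0.157, 0.0762 and 0.160 CPM with DMSO. Its change was 5.77 ± 0.34 (adjusted p = 1.43e-11), higher in 4 of 4 libraries. Between 6 h and 24 h of BRM014 it rose by 3.53 ± 0.31 (adjusted p = 3.51e-11), so most of its rise came after 6 h. Robo4 was at 1.06, 1.12, 0.772 and 0.499 CPM against 5.28, 5.45, 5.31 and 5.92 with DMSO (-2.69 ± 0.22, adjusted p = 1.63e-08). Pecam1 was at 38.0, 34.7, 38.4 and 39.6 CPM against 100.8, 103, 89.9 and 79.5 with DMSO (-1.29 ± 0.08, adjusted p = 2.05e-09). For both of these the BRM014 and DMSO libraries did not overlap. Mmrn2 was lower by 2.27 ± 0.34 (adjusted p = 0.00101).

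Kdr was higher by 0.55 ± 0.19 (adjusted p = 0.0237), at 3.79, 4.09, 1.99 and 2.36 CPM with BRM014 against 2.66, 2.10, 1.91 and 1.44 with DMSO. The groups did not overlap within a batch but did across batches. This call was lost without any of 5 single libraries: BRM014 replicates 1, 2 or 4 (adjusted p = 0.0540, 0.0733 and 0.0543), or DMSO replicates 2 or 4 (0.0739 and 0.0641). Flt1 and Icam1 did not pass (-0.17 ± 0.11, 95% interval -0.39 to 0.05, and 0.10 ± 0.08, interval -0.07 to 0.28).

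Within batches, 5 of 7 passed in the first (45.8% of all genes, 22.6% higher and 23.2% lower) and 5 in the second (42.3% of all genes, 20.6% higher and 21.7% lower). The first repeated the pooled calls, with Kdr at 0.72 ± 0.28 (adjusted p = 0.0352, lost without BRM014 replicate 1 or 2 or DMSO replicate 2 at 0.0807, 0.143 and 0.188), and Flt1 passed there without BRM014 replicate 2 (-0.38, 0.0467) or DMSO replicate 1 (-0.39, 0.0236); the second called Icam1 (0.32 ± 0.08, adjusted p = 0.00275) and not Kdr (0.36 ± 0.23, adjusted p = 0.217). The difference between batches passed for 2 of 7 genes, where 3.46% of all genes passed (1.98% higher and 1.48% lower). Mmrn2 fell by 3.13 ± 0.15 in the first batch and by 1.46 ± 0.14 in the second, a difference of 1.67 ± 0.25 (adjusted p = 0.000673). Its BRM014 libraries were alike in both batches (2.93 and 4.34 CPM, then 3.96 and 3.09), and the DMSO libraries differed (31.3 and 32.2 CPM, then 9.68 and 10.2). The Icam1 change differed by 0.46 ± 0.11 (adjusted p = 0.0268), with DMSO at 201.7 and 195.2 CPM in the first batch and 169.6 and 148.9 in the second. The Icam1 difference was lost without BRM014 replicate 1, 2, 3 or 4 or DMSO replicate 4 (adjusted p from 0.105 to 0.158).

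From 6 h to 24 h under BRM014, 4 of 7 genes rose, where 41.6% of all genes passed (19.5% higher and 22.1% lower). Icam1 went from 81.1 and 84.1 to 183 and 181 CPM (1.14 ± 0.06, adjusted p = 1.84e-14), which placed it near its DMSO 24 h level. Kdr rose by 1.39 ± 0.31 (adjusted p = 0.000469) and Pecam1 by 0.51 ± 0.08 (adjusted p = 3.64e-06), while Pecam1 still lay under all vehicle libraries. Robo4 (-0.20 ± 0.29) and Mmrn2 (0.25 ± 0.18) gave no call over this interval, Mmrn2 passing without BRM014 24 h replicate 1 (0.52, adjusted p = 0.0417).

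The vehicle itself moved over time. Between DMSO 1 h and 24 h, 5 of 7 passed, where 18.5% of all genes did (8.91% higher and 9.63% lower). Robo4 fell from 20.1 in both libraries to 5.28 and 5.45 CPM (-1.91 ± 0.14, adjusted p = 1.54e-10), Kdr from 5.35 and 3.81 to 2.66 and 2.10 (-0.93 ± 0.27, adjusted p = 0.0150), and Pecam1 from 126 and 122 to 100.8 and 103 (-0.28 ± 0.07, adjusted p = 0.00301). Mmrn2 rose from 17.4 and 20.4 to 31.3 and 32.2 CPM (0.75 ± 0.11, adjusted p = 1.48e-05) and Icam1 by 0.23 ± 0.06 (adjusted p = 0.00960). Without DMSO 1 h replicate 1 only Robo4 and Mmrn2 still passed, as also with a fit of the 4 DMSO libraries alone. The Icam1 call was also lost without DMSO 1 h replicate 2 (adjusted p = 0.0636) and the Kdr call without DMSO 24 h replicate 2 (0.141); Flt1 passed without that library (-0.44, adjusted p = 0.0371).

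The inactive analog, at the same dose as BRM014, showed how far these genes move with the control compound. At 1 h, 0 of 7 differed from DMSO, where 0.184% of all genes did; 1 had an unadjusted p under 0.05 (Flt1) and DESeq2 called 0. At 24 h, 4 of 7 were lower than with DMSO, where 18.4% of all genes passed (8.91% higher and 9.52% lower). Mmrn2 was at 8.96 and 9.29 CPM against 31.3 and 32.2 with DMSO (-1.80 ± 0.12, adjusted p = 1.15e-11), a fitted fall of 3.48-fold with no overlap. Kdr was at 1.42 and 0.679 CPM, 31 and 15 counts (-1.18 ± 0.36, adjusted p = 0.0170), Flt1 at 12.9 and 13.7 CPM (-0.48 ± 0.13, adjusted p = 0.00748) and Pecam1 at 86.6 and 90.5 CPM (-0.20 ± 0.07, adjusted p = 0.0329). Of these, Mmrn2 held in every fit without 1 library, while each such fit lost 2 of the other 3 calls (adjusted p from 0.0564 to 0.248). There was no analog group in the second batch, where DMSO at 24 h (9.68 and 10.2 CPM) was close to the analog level of Mmrn2 in the first batch.

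BRM014 and the analog were compared at 10 uM at 1 h and at 24 h, 14 gene and time pairs in all, with p-values adjusted over all genes at each time. At 1 h, 0 of 7 differed, where 0.16% of all genes did; 1 had an unadjusted p under 0.05 (Robo4, -0.41, 95% interval -0.66 to -0.16) and DESeq2 called 0. The intervals at 1 h excluded a change of 1 log2 for each gene except Vcam1 (-0.82 to 1.45). At 24 h, 5 of 7 differed, where 35.4% of all genes did (17.3% higher and 18.1% lower). Vcam1 was at 8.13 and 7.77 CPM with BRM014 and 0.505 and 0.317 with the analog (4.26 ± 0.36, adjusted p = 3.71e-12), and Kdr at 3.79 and 4.09 against 1.42 and 0.679 (1.90 ± 0.34, adjusted p = 2.93e-05). Both were higher with BRM014 in each library. Robo4 was lower by 2.15 ± 0.25 (adjusted p = 8.21e-09), Mmrn2 by 1.33 ± 0.16 (adjusted p = 4.87e-08) and Pecam1 by 1.28 ± 0.07 (adjusted p = 1.35e-14). The Robo4 and Pecam1 differences from the analog were close to those from DMSO (-2.29 and -1.49), whereas for Mmrn2 the difference from DMSO was -3.13 and for Kdr 0.72. The comparisons share the BRM014 libraries. Icam1 did not differ (-0.03, 95% interval -0.16 to 0.10), nor did Flt1 pass (0.27, interval 0.00 to 0.53), although it did without BRM014 replicate 1 (0.41, adjusted p = 0.0401).

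**Figure D2:**
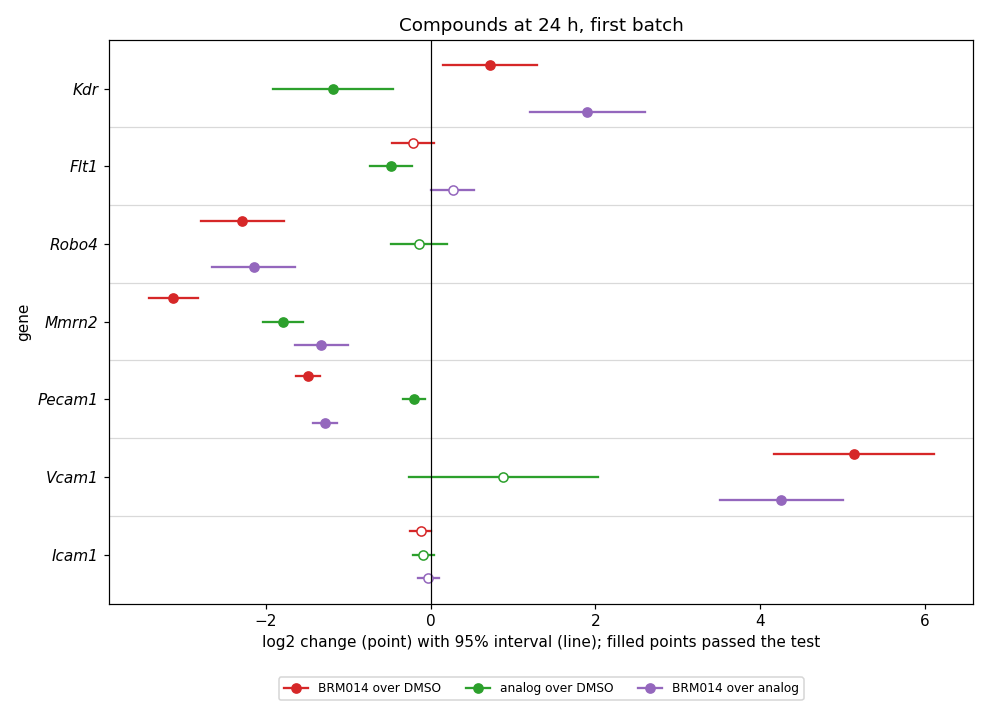
Log2 change at 24 h in the first batch (x axis) for each gene (y axis): BRM014 over DMSO, analog over DMSO and BRM014 over analog, with 95% intervals; filled points passed the test. Robo4 and Pecam1 lie at similar places for BRM014 over DMSO and over the analog, while Mmrn2 is lower with the analog too (-1.80) and Kdr moves in opposite directions with the 2 compounds (0.72 and -1.18).

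After 1 h of BRM014 and a short washout, chiefly Flt1 differed. The BRM014 and DMSO groups used for comparison had 1 h and no washing, so time, washing and removal cannot be told apart. At 30 min of washout 0 of 7 differed from BRM014 1 h, where 5.9% of all genes did; 3 had an unadjusted p under 0.05 (Robo4, Flt1 and Icam1) and DESeq2 called 0. Icam1 passed without BRM014 1 h replicate 1 or without washout replicate 1 (0.25 and 0.23, adjusted p = 0.0434 and 0.0359). Against DMSO 1 h, 0 of 7 passed at 30 min, where 5.36% of all genes did; 1 had an unadjusted p under 0.05 (Flt1) and DESeq2 called 0. At 1 h of washout 1 of 7 differed from BRM014 1 h, where 3.98% of all genes did (3.02% higher and 0.959% lower). That gene, Flt1, was at 34.6 and 34.1 CPM against 20.9 and 21.9 (0.69 ± 0.12, adjusted p = 0.000294). It also exceeded DMSO 1 h, at 22.2 in both libraries (0.63 ± 0.12, adjusted p = 0.000629), and at 34.4 CPM on average this was its highest group of the first batch. Against DMSO 1 h, 2 of 7 passed, where 8.1% of all genes did (4.95% higher and 3.15% lower); the other was Pecam1 (109.7 and 104.3 against 126 and 122 CPM, -0.21 ± 0.07, adjusted p = 0.0418), which was lost without any 1 of the 4 libraries (adjusted p from 0.0603 to 0.278) and without the filter on low counts (0.116). The 9 primitive endoderm markers with counts summed to between 3440 and 3782 CPM in the 4 short-washout libraries and to between 2309 and 2536 in the BRM014 1 h and DMSO 1 h libraries, with Pdgfra listed at 0. The 9 trophoblast markers with counts summed to between 138 and 163 CPM in the short washouts and to between 95.3 and 116 in those others, with Gata3 listed at 0. Over all libraries the most abundant genes of the 2 lists were Lama1 (median 2011 CPM) and Krt18 (95.9). The part of either list in the Flt1 result was not tested.

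At 6 h of washout after 24 h of BRM014, all 7 genes differed from BRM014 24 h. Of these, 6 were higher and Vcam1 was lower, where 48.7% of all genes passed (25.3% higher and 23.4% lower). Kdr changed from 3.79 and 4.09 CPM to 38.7 and 42.2 (3.36 ± 0.22, adjusted p = 4.39e-13), a 10.3-fold rise on 868 and 837 counts. Robo4 went from 1.06 and 1.12 to 20.5 and 21.01 CPM (4.24 ± 0.23, adjusted p = 5.64e-17) and Mmrn2 from 2.93 and 4.34 to 44.9 and 45.4 CPM (3.63 ± 0.14, adjusted p = 1.16e-18). In all 3 the groups were far apart. Pecam1 rose by 1.49 ± 0.07 to 101.6 and 103.2 CPM, Flt1 by 0.80 ± 0.12 to 29.8 and 25.9 CPM, and Icam1 by 0.71 ± 0.06 to 306.6 and 289.8 CPM. Vcam1 was at 5.89 and 4.79 CPM against 8.13 and 7.77 (-0.57 ± 0.21, adjusted p = 0.0286). That last call was lost with DESeq2 (-0.58, adjusted p = 0.179) and without BRM014 replicate 1 (-0.55, 0.122), BRM014 replicate 2 (-0.61, 0.0814) or washout replicate 2 (-0.43, 0.213).

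Set against DMSO 24 h, 6 of 7 genes stood above vehicle at 6 h of washout, where 39.8% of all genes passed (20.8% higher and 19% lower). These cells had 6 h beyond the 24 h of the vehicle, which was not washed, so time, washing and removal cannot be told apart. Kdr was 16.9-fold above (4.08 ± 0.24, adjusted p = 1.26e-13) and Vcam1 23.7-fold above (4.57 ± 0.48, adjusted p = 4.34e-11). Against DMSO 1 h alone these folds were 8.85 for Kdr (3.15, adjusted p = 2.75e-12) and 13.7 for Vcam1 (3.78, adjusted p = 1.73e-10). Robo4 was 3.86-fold above DMSO 24 h (1.95 ± 0.14, adjusted p = 8.28e-12), but against DMSO 1 h, where it was at 20.1 CPM, the change was 0.04 (adjusted p = 0.813). Mmrn2 (0.51 ± 0.10, adjusted p = 0.000280), Flt1 (0.59 ± 0.12, adjusted p = 0.000258) and Icam1 (0.59 ± 0.06, adjusted p = 1.04e-08) were above by less; for Mmrn2 the change against DMSO 1 h alone was 1.25 (adjusted p = 2.98e-10). Pecam1 matched DMSO 24 h (0.01 ± 0.07, 95% interval -0.13 to 0.14) and was below DMSO 1 h (-0.28, adjusted p = 0.00141). The 7 endothelial markers with counts summed to 67.2 and 76.5 CPM in these libraries, the highest of the series, against 41.0 in both DMSO 24 h libraries. Emcn, Cldn5 and Egfl7 were listed at 0. A single gene can carry this sum: Esam alone ranged from 2.18 to 43.3 CPM over all libraries, with a median of 8.75. Of 20 genes tested from a wider endothelial list, 4 were higher and 4 lower than with DMSO 24 h, near the shares of all genes. The 9 trophoblast markers with counts summed to 152 and 154 CPM against 99.6 and 106, with Gata3 listed at 0. The part of these markers in the result was not tested.

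By 24 h of washout the levels had come down again. From 6 h to 24 h, 6 of 7 fell (all but Flt1), where 40.3% of all genes passed (19% higher and 21.3% lower), and Kdr fell 22.0-fold to 2.04 and 1.64 CPM (-4.46 ± 0.26, adjusted p = 3.96e-14). Robo4 fell to 3.92 and 3.69 CPM (-2.45 ± 0.15), Mmrn2 to 11.7 and 12.8 (-1.88 ± 0.11) and Vcam1 to 0.713 and 0.819 (-2.79 ± 0.31). Pecam1 changed little (-0.22 ± 0.07, adjusted p = 0.00898), and its call was lost without replicate 2 of either washout group (adjusted p = 0.0607 and 0.0978) and without the filter on low counts (0.0503). Against BRM014 24 h all 7 passed, where 50.4% of all genes did (25.8% higher and 24.6% lower), with Kdr (-1.10 ± 0.29) and Vcam1 (-3.36 ± 0.30) lower and the other 5 higher.

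Against DMSO 24 h, 5 of 7 differed at 24 h of washout, where 17.4% of all genes did (8.91% higher and 8.52% lower). The washed cells had 24 h of washout beyond the 24 h of the unwashed vehicle, so time, washing and earlier exposure cannot be told apart. Flt1 remained above vehicle (30.2 and 31.0 against 16.3 and 20.97 CPM, 0.72 ± 0.12, adjusted p = 6.90e-05) and Mmrn2 below it (11.7 and 12.8 against 31.3 and 32.2 CPM, -1.37 ± 0.11, adjusted p = 7.70e-10). These 2 calls held in every alternative, with Mmrn2 at -0.62 against DMSO 1 h alone; the Mmrn2 vehicle level is the one that was 31.8 CPM in this batch and 9.95 in the other. The 9 trophoblast markers with counts summed to 208.4 and 208.7 CPM at 24 h of washout, against 99.6 and 106 with DMSO 24 h, with Gata3 listed at 0. Krt18, the most abundant of them, had a median of 95.9 CPM over all libraries. The part of these markers in the Flt1 result was not tested. Vcam1 (1.78 ± 0.52, adjusted p = 0.00980), Pecam1 (-0.21 ± 0.07, adjusted p = 0.0252) and Robo4 (-0.50 ± 0.17, adjusted p = 0.0443) were less secure. The Vcam1 call was lost against DMSO 1 h (adjusted p = 0.0824) and without DMSO 24 h replicate 2 (0.115) or washout replicate 2 (0.0644). Pecam1 was lost without DMSO 24 h replicate 2 (0.128) or either washout library (0.0687 and 0.143), and Robo4 without any 1 of the 4 libraries (0.0833 to 0.200), with DESeq2 (0.0680) or without the filter on low counts (0.0519), while against DMSO 1 h alone Robo4 was at -2.40 (5.44e-13). Kdr (-0.39 ± 0.31) and Icam1 (0.16 ± 0.06) did not pass, but against DMSO 1 h alone both did (-1.32, adjusted p = 0.000847, and 0.39, adjusted p = 2.32e-05).

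**Figure D3:**
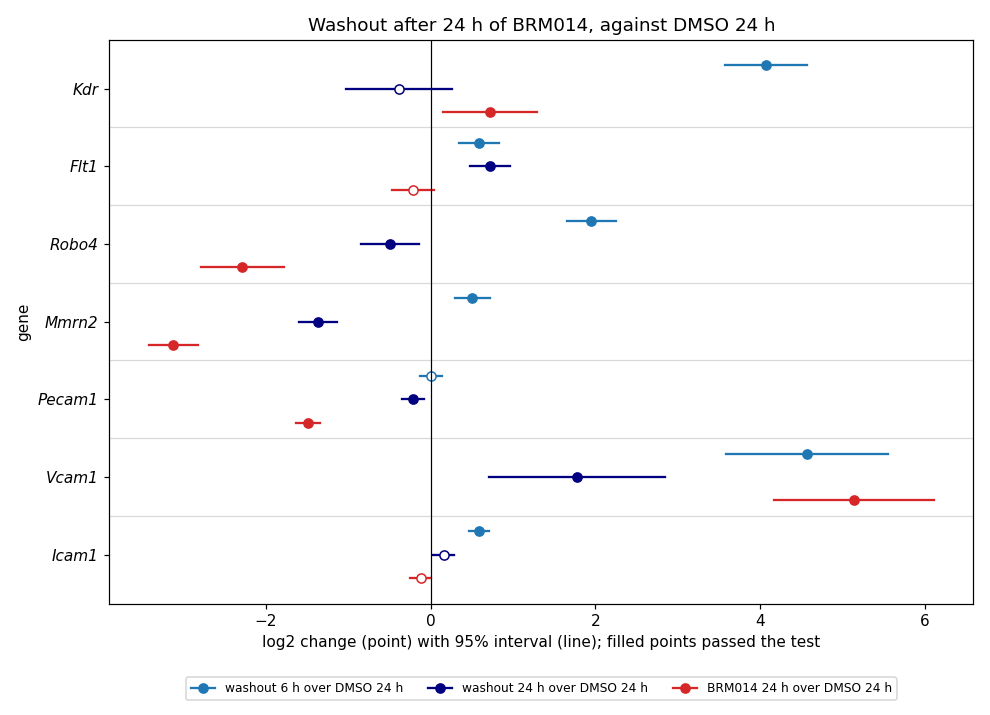
Log2 change against DMSO 24 h in the first batch (x axis) for each gene (y axis) at 6 h and 24 h of washout and under BRM014 at 24 h, with 95% intervals; filled points passed the test. At 6 h of washout Kdr (4.08) and Robo4 (1.95) lie above vehicle, and Vcam1 is at 4.57, against 5.14 under BRM014; at 24 h Mmrn2 is still at -1.37.

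The knockout labels changed the vehicle levels of these genes in different ways. In the libraries labelled Ino80ko, 5 of 7 differed from wild type with DMSO, where 45% of all genes did (22.1% higher and 22.9% lower). Flt1 was at 3.23 and 2.79 CPM against 16.5 and 17.2 (-2.49 ± 0.15, adjusted p = 7.86e-11), 5.61-fold lower, and Pecam1 at 41.6 and 44.9 against 89.9 and 79.5 (-0.97 ± 0.11, adjusted p = 7.03e-07). Robo4 was at 16.4 and 16.3 CPM against 5.31 and 5.92 (1.54 ± 0.14, adjusted p = 6.64e-08), Mmrn2 at 18.1 and 18.4 against 9.68 and 10.2 (0.87 ± 0.11, adjusted p = 5.04e-06), and Icam1 was higher by 0.28 ± 0.08 (adjusted p = 0.00625; 0.0893 without wild-type DMSO replicate 4). Thus the 2 VEGF receptors parted, with Kdr at 1.35 and 1.45 CPM against 1.91 and 1.44 (-0.25 ± 0.23, adjusted p = 0.409). Vcam1, on 2 and 3 counts, gave no call (-0.93 ± 0.77, adjusted p = 0.314).

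In the libraries labelled Snf2hko all 7 differed from wild type, 6 higher and Pecam1 lower, where 56.5% of all genes passed (28.9% higher and 27.7% lower). Vcam1 was at 1.55 and 1.85 CPM, 68 and 85 counts, against 3 and 7 counts in wild type (3.79 ± 0.47, adjusted p = 2.27e-08). Flt1 was at 49.4 and 52.0 CPM (1.59 ± 0.11, adjusted p = 6.63e-10), Kdr at 5.01 and 4.79 (1.55 ± 0.20, adjusted p = 2.01e-06) and Mmrn2 at 34.8 and 36.3 (1.84 ± 0.11, adjusted p = 8.42e-11). Each of these 4 was above both wild-type libraries. Robo4 (8.67 and 8.48 CPM, 0.61 ± 0.15, adjusted p = 0.00165) and Icam1 (224.8 and 231.9 CPM, 0.52 ± 0.08, adjusted p = 1.22e-05) were higher by less, and Pecam1 was at 61.8 and 61.6 CPM (-0.46 ± 0.11, adjusted p = 0.00123). Compared directly, all 7 differed between Snf2hko and Ino80ko, where 57.4% of all genes passed (29.1% higher and 28.3% lower): only Robo4 was lower with the Snf2hko label (-0.93 ± 0.14), and Flt1 was 16.9-fold higher (4.08 ± 0.14, adjusted p = 8.70e-15). The call for Icam1 (0.24 ± 0.08, adjusted p = 0.0119) was lost without Ino80ko replicate 1 or Snf2hko replicate 2 (0.0712 and 0.0763).

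Summed markers of other cell types moved with the genotype labels. The 9 primitive endoderm markers with counts summed to 1566 and 1640 CPM in wild type with DMSO, 854 and 999 in Ino80ko, and 6855 and 7046 in Snf2hko, with Pdgfra listed at 0. The 7 endothelial markers with counts summed to 32.1 and 35.4 CPM in wild type, 25.9 and 27.4 in Ino80ko and 63.1 and 66.1 in Snf2hko, with Emcn, Cldn5 and Egfl7 listed at 0. The 8 blood markers with counts summed to 8.50 and 9.30, 6.98 and 7.29, and 26.9 and 32.8 CPM in the same order, with Ptprc and Itga2b listed at 0. The 9 trophoblast markers with counts summed to 79.8 and 85.7 CPM in wild type, 44.9 and 48.0 in Ino80ko and 224 and 227 in Snf2hko, with Gata3 listed at 0. Flt1 had the same order of genotypes as each of these 4 sums, but not as those for neural cells, fibroblasts or pluripotent cells. In wild type, Ino80ko and Snf2hko the neural markers summed to 75.5 and 76.7, 79.2 and 82.5, and 88.2 and 91.3 CPM. Fibroblast markers summed to 11.9 and 13.8, 15.2 and 16.0, and 19.2 and 20.3 CPM. Pluripotency markers summed to 6293 and 6592, 6693 and 6972, and 5745 and 6013 CPM. The sums are not weighted, so single abundant genes weigh heavily in them. Over all libraries Lama1 (primitive endoderm) had a median of 2011 and a maximum of 8190 CPM. For Krt18 (trophoblast) these were 95.9 and 205, and for Runx1 (blood) 10.8 and 67.2. The part of these markers in the differences was not tested.

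**Figure D4:**
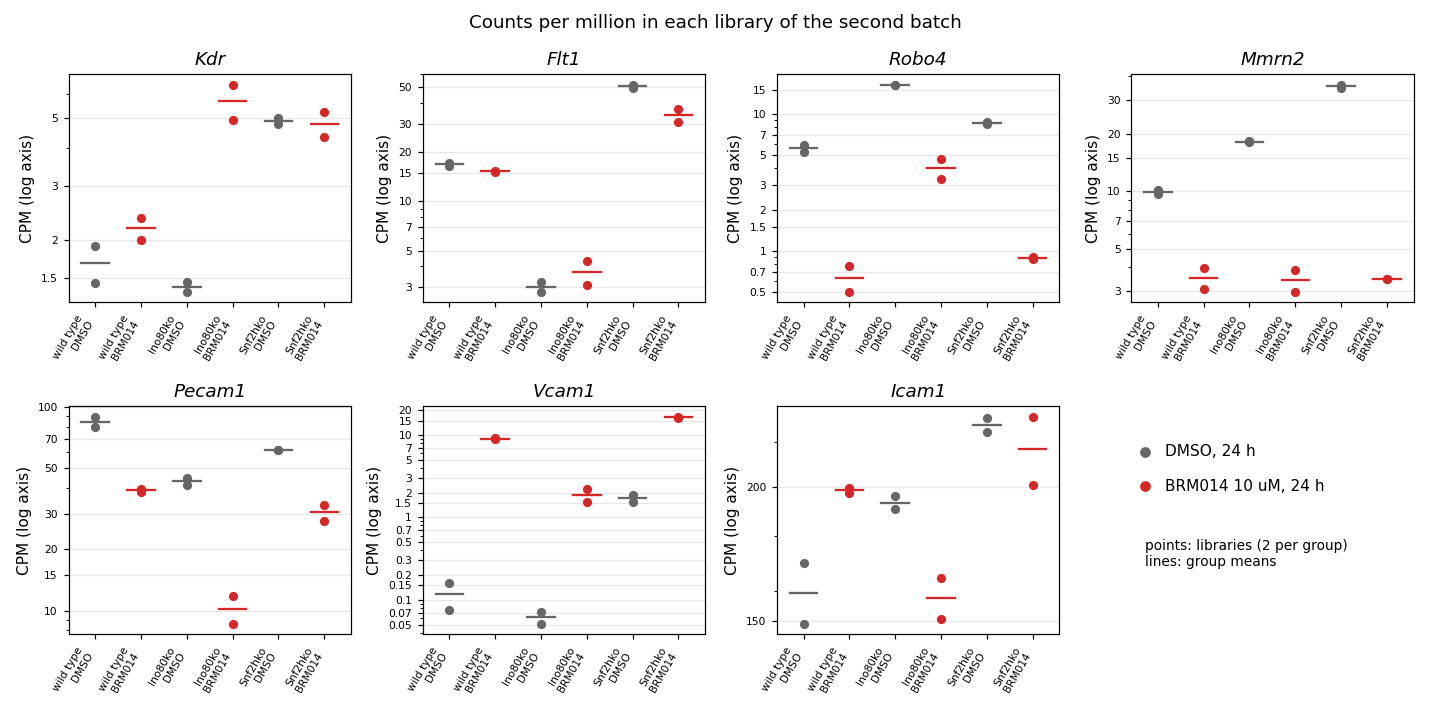
CPM of each gene (log axis) in the 12 libraries of the second batch, by genotype label and treatment; points are libraries and lines are group means. Flt1 orders the lines as Ino80ko (about 3 CPM), wild type and Snf2hko (about 50), and BRM014 brings Mmrn2 to between 2.98 and 3.96 CPM in all 3.

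BRM014 for 24 h lowered Robo4, Mmrn2 and Pecam1 and raised Vcam1 in each of the 3 lines. Smarca2, which codes for one of the ATPases that BRM014 blocks, itself differed between the lines with DMSO (10.4 and 10.8 CPM in wild type, 4.19 and 4.31 in Ino80ko, 45.4 and 43.7 in Snf2hko). It was lower in Ino80ko (-1.32 ± 0.12, adjusted p = 4.08e-08) and higher in Snf2hko (2.07 ± 0.10, adjusted p = 4.05e-12), and its part in the differences between lines was not tested. In Ino80ko 6 of 7 genes passed, where 44.5% of all genes did (22% higher and 22.6% lower). Robo4 went from 16.4 and 16.3 to 3.33 and 4.68 CPM (-2.03 ± 0.15), Mmrn2 from 18.1 and 18.4 to 3.87 and 2.98 (-2.41 ± 0.13) and Pecam1 from 41.6 and 44.9 to 11.8 and 8.61 (-2.09 ± 0.12), its lowest libraries of the series. Kdr rose from 1.35 and 1.45 to 6.45 and 4.93 CPM (2.02 ± 0.21, adjusted p = 1.29e-07) and Vcam1 to 1.56 and 2.20 CPM, 60 and 88 counts (4.87 ± 0.65, adjusted p = 6.56e-09). Icam1 fell by 0.30 ± 0.08 (adjusted p = 0.00416; 0.0820 without BRM014 Ino80ko replicate 2), and Flt1 did not pass (0.30 ± 0.16) except without BRM014 Ino80ko replicate 1 (0.53, 0.0207). In Snf2hko 5 of 7 passed, where 56.9% of all genes did (28.7% higher and 28.2% lower). Mmrn2 reached 3.46 CPM in both libraries (-3.36 ± 0.13), Robo4 0.866 and 0.906 (-3.27 ± 0.21), Pecam1 27.7 and 33.2 (-1.02 ± 0.11) and Flt1 37.0 and 30.8 (-0.58 ± 0.11, adjusted p = 0.000153). Vcam1 reached 16.0 and 16.8 CPM, 591 and 742 counts, its highest level of the series (3.26 ± 0.17, adjusted p = 6.90e-12). Kdr (-0.04 ± 0.18) and Icam1 (-0.08 ± 0.08) did not pass there. The blood markers with counts summed to 55.3 and 68.9 CPM in the same libraries, the highest of the series, and the primitive endoderm markers to between 9157 and 10203. The endothelial markers summed to 26.9 and 29.3 CPM there, against 63.1 and 66.1 in Snf2hko with DMSO. Sums for trophoblast (185 and 201 against 224 and 227), neural cells (57.1 and 61.6 against 88.2 and 91.3) and fibroblasts (18.6 and 19.1 against 19.2 and 20.3) were lower too. Those for pluripotent cells overlapped. Over all libraries Runx1 alone reached 67.2 CPM and Lama1 alone 8190. The part of these markers in the Vcam1 level was not tested.

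The BRM014 effect differed between Ino80ko and wild type of the second batch for 5 of 7 genes, where 9.03% of all genes passed this test (4.16% higher and 4.87% lower). The rise of Kdr was larger in Ino80ko by 1.65 ± 0.31 (adjusted p = 0.00172), as it rose by 2.02 there and by 0.36 in wild type. On the log2 scale the falls of Pecam1 and Mmrn2 were deeper in Ino80ko (-0.97 ± 0.16, adjusted p = 0.000699, and -0.95 ± 0.20, adjusted p = 0.00398), and that of Robo4 was shallower (1.03 ± 0.30, adjusted p = 0.0312). Mmrn2 fell from a higher vehicle level in Ino80ko (18.1 and 18.4 against 9.68 and 10.2 CPM). It reached 3.87 and 2.98 CPM there, against 3.96 and 3.09 in wild type. Robo4 also had a higher vehicle level in Ino80ko, and in wild type with BRM014 it rested on 31 and 11 counts. Icam1 rose with BRM014 in wild type of this batch (0.32) and fell in Ino80ko (-0.30), a difference of -0.61 ± 0.11 (adjusted p = 0.00120). For Mmrn2 and Icam1 the wild-type effect itself differed between batches: in the first it was -3.13 for Mmrn2, deeper than the -2.41 of Ino80ko, and -0.12 ± 0.06 for Icam1. The Robo4 difference was lost without 6 of the 8 libraries in turn (adjusted p from 0.0580 to 0.151), and the Mmrn2 difference without wild-type BRM014 replicate 3 (0.0929).

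Between Snf2hko and wild type of the second batch the effect differed for 4 of 7 genes, all in the direction of a more negative change in Snf2hko, where 32.6% of all genes passed (15.8% higher and 16.8% lower). On the log2 scale Vcam1 rose less (-2.94 ± 0.49, adjusted p = 1.97e-05), from a vehicle level that was already 13.8-fold above wild type. That wild-type vehicle level rests on 3 and 7 counts. After BRM014, Vcam1 was higher in Snf2hko (16.0 and 16.8 CPM) than in wild type (9.26 and 8.85). Mmrn2 fell further (-1.90 ± 0.19, adjusted p = 6.37e-07), from a higher vehicle level (34.8 and 36.3 against 9.68 and 10.2 CPM) to 3.46 CPM in both libraries, against 3.96 and 3.09 in wild type; in wild type of the first batch its change was -3.13, near the -3.36 of Snf2hko. Icam1 (-0.39 ± 0.11, adjusted p = 0.00989) and Flt1 (-0.44 ± 0.16, adjusted p = 0.0423) differed by less; Icam1 in wild type of the first batch (-0.12) was close to Snf2hko (-0.08), and its call was lost without wild-type DMSO replicate 4 (0.0501) and Flt1 without any of 7 of the 8 libraries in turn (0.0558 to 0.128). No difference was called for Pecam1 (0.10, 95% interval -0.22 to 0.43), Robo4 (-0.21, interval -0.92 to 0.50) or Kdr (-0.40, interval -1.01 to 0.21).

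**Figure D5:**
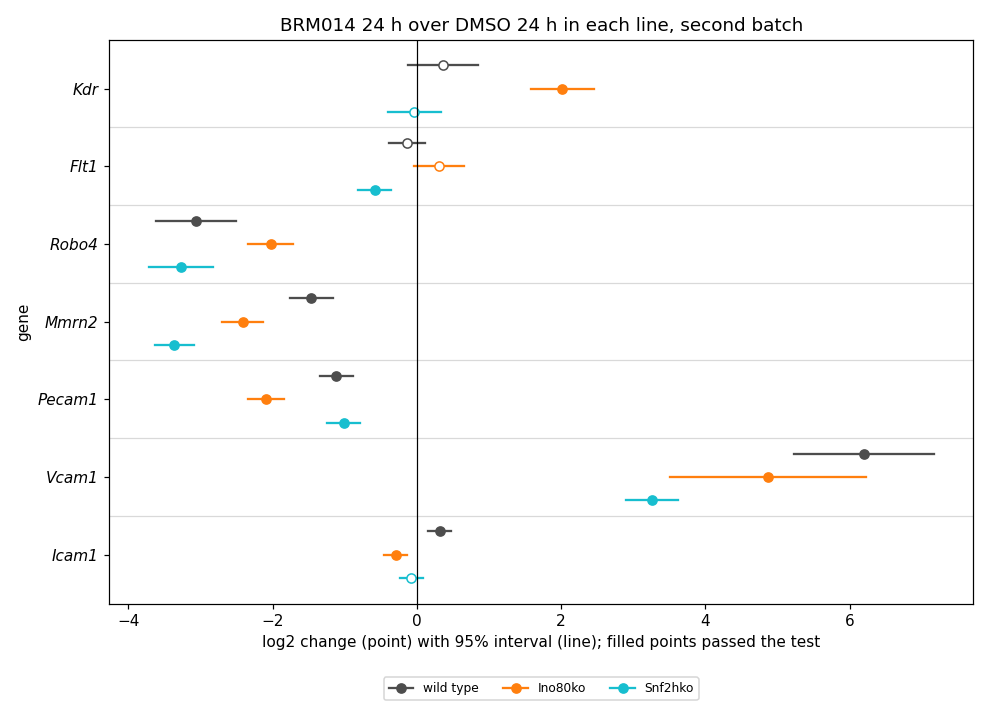
Log2 change of BRM014 24 h over DMSO 24 h (x axis) for each gene (y axis) in wild type, Ino80ko and Snf2hko of the second batch, with 95% intervals; filled points passed the test. Kdr rises in Ino80ko (2.02) and not in Snf2hko (-0.04), and Mmrn2 falls by 1.46, 2.41 and 3.36 in the 3 lines.

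Other genes of these pathways, from lists drawn up by role, were read beside the 7. Their counts stand beside the shares of all genes that passed in the same comparison. Of 32 other endothelial genes 23 had counts. At 6 h of BRM014, 20 were tested, 2 rose and 12 fell, where 24.9% of all genes rose and 23.5% fell, with a median of -0.60 against -9.3e-05 over all genes; Notch4, an endothelial Notch receptor (-2.05 ± 0.19, adjusted p = 6.15e-10), and Nos3, the endothelial nitric oxide synthase (-1.08 ± 0.14, adjusted p = 2.54e-07), were among those that fell. At 24 h in both batches, 19 were tested, 2 rose and 12 fell (median -1.04), where 24.8% of all genes rose and 24.8% fell, among them Cdh5, the adherens junction cadherin of endothelium (-3.37 ± 0.37, adjusted p = 1.45e-06). In the first batch alone the median of 20 was -0.86. With the analog against DMSO at 24 h, 0 of 20 were higher and 6 lower (median -0.42), where 8.91% of all genes were higher and 9.52% lower. BRM014 against the analog gave 1 higher and 8 lower (median -0.39), where 17.3% of all genes were higher and 18.1% lower. At 6 h of washout against DMSO 24 h, 4 of 20 were higher and 4 lower (median -0.12), shares near those of all genes (20.8% and 19%), with the junction gene Esam at 2.73 ± 0.16 (adjusted p = 5.03e-14) and Notch4 at 1.52 ± 0.16 (adjusted p = 3.22e-08). With the Snf2hko label 10 of 21 were higher and 4 lower (median 0.45), where 28.9% of all genes were higher and 27.7% lower, led by the endoderm and endothelial factors Sox17 (2.50 ± 0.12) and Sox7 (2.21 ± 0.11), and with Ino80ko 6 were higher and 8 lower (median -0.10, with 22.1% and 22.9% of all genes), with the angiopoietin receptor gene Tek at -2.15 ± 0.13 (adjusted p = 1.28e-10).

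Among 32 ligands and partners of the proteins, 19 were tested at 6 h of BRM014; 2 rose and 7 fell (median -0.31), together near the 48.4% of all genes that passed. Vegfa, the ligand of both VEGF receptors, fell (-1.61 ± 0.07, adjusted p = 3.35e-16), and Itgb1, a chain of the Vcam1 receptor, rose (0.85 ± 0.06, adjusted p = 2.15e-13). At 24 h in both batches Vegfa was lower by 0.57 ± 0.08 (adjusted p = 1.22e-05), Itgb1 higher by 1.41 ± 0.06 (adjusted p = 2.64e-11) and Acvrl1, the receptor that works with Eng, lower by 2.57 ± 0.32 (adjusted p = 2.07e-06), with 2 of 18 higher and 8 lower, where 49.6% of all genes passed. The third VEGF receptor gene, Flt4, was higher at 6 h of washout than with DMSO 24 h (1.39 ± 0.13, adjusted p = 1.36e-09), and higher with both knockout labels (1.60 ± 0.11 in Ino80ko and 2.32 ± 0.11 in Snf2hko). Flt1 thus differed in sign from Flt4 in Ino80ko, where it was 2.49 lower.

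Of 23 other immunoglobulin and selectin adhesion genes, 16 were tested: 2 rose and 6 fell at 6 h of BRM014 (median -0.26), near the 48.4% of all genes that passed, and 4 rose and 6 fell at 24 h (median -0.11), where 49.6% of all genes passed. Mcam, an adhesion molecule of vessels, fell at both times (-2.65 ± 0.08, adjusted p = 6.24e-20, and -2.29 ± 0.13, adjusted p = 3.44e-08), and like Mmrn2 it was also lower with the analog at 24 h (-1.54 ± 0.08, adjusted p = 3.52e-14). Of 28 early mesoderm genes, 20 were tested at 6 h of BRM014 (4 rose, 8 fell, median 0.02, against 48.4% of all genes) and 19 at 24 h (5 rose, 4 fell, median -0.05, against 49.6% of all genes). At 24 h Hand1 rose by 2.96 ± 0.35 (adjusted p = 1.08e-06) and Bmp4, a mesoderm-inducing ligand, fell by 1.79 ± 0.08 (adjusted p = 2.06e-11). At 6 h of washout 9 of the 20 were above DMSO 24 h and 0 below (median 0.43), where 20.8% of all genes were above and 19% below, including Cdx2, a caudal-type homeobox factor (1.87 ± 0.33, adjusted p = 3.05e-05), and Evx1 of the primitive streak (2.85 ± 0.65, adjusted p = 0.000180). Of 22 NF-kB factors and targets, 16 were tested at 6 h of BRM014 (3 rose, 6 fell, median -0.05), where 48.4% of all genes passed. Among those that fell, Nfkbia, the feedback inhibitor, did so by 0.74 ± 0.10 (adjusted p = 5.94e-07). The part of this list in the Icam1 level was not tested. With the Snf2hko label 12 of 16 of this list were higher and 2 lower (median 0.66), where 28.9% of all genes were higher and 27.7% lower.

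Across the means of the 13 groups of the first batch, Pecam1 and Robo4 were the members with the most similar profiles (Pearson r = 0.90), followed by Pecam1 and Mmrn2 (0.86) and Robo4 and Mmrn2 (0.82). For Vcam1, r was -0.48 to Pecam1, -0.39 to Robo4, -0.24 to Mmrn2, -0.01 to Flt1, 0.30 to Icam1 and 0.51 to Kdr. Among 8820 other genes, the profiles most like Kdr were those of Phldb1 (0.98), Wsb2 (0.95) and Crabp2 (0.95), and those most like Vcam1 were Coch (0.96), Naaa (0.95) and Car2 (0.95). Pecam1 ran closest to Tnfrsf1b (0.99), Tnfrsf8 (0.98) and Wscd2 (0.98), Robo4 to Serpinb9b, Itga3 and Trim6 (0.98 each), and Mmrn2 to Mcam (0.98), Rtkn (0.98) and Def6 (0.97). Icam1 ran closest to Pak6 (0.98), Cd276 (0.97) and Fgf1 (0.97). Flt1 had the least close neighbours, Bmp1 (0.88), Mtfr1l (0.88) and Tfpi (0.87). These values are over 13 points that share a batch and vehicle, and they describe likeness of profile only.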

How the data were processed

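Per the labels, total RNA of 38 libraries was sequenced with a stranded kit. The authors deposited raw counts per gene. The tools named in the submitters' processing notes are bcl2fastq 2.17 and STAR, with the build GRCm38 (mm10); the counting program is not given in the sources used here. Testing used the robust quasi-likelihood F-test of edgeR 4.0.16, run in R 4.3.3 (filterByExpr, minimum count 10 and total 15; TMM; Benjamini-Hochberg adjustment over all genes, called at 0.05) in fits of 26 libraries (12517 genes, 13 residual degrees of freedom), 12 libraries (13130 genes, 6) or the 8 wild-type 24 h libraries with batch as a term (11787 genes). Each of the 32 comparisons had its own adjustment. CPM used TMM-scaled totals, and RPKM the deposited exonic lengths. The fit was tested on simulated counts. Alternatives were DESeq2 1.42.0, other filters, size factors, fewer libraries, single vehicles and leaving out each replicate. Members and lists were chosen with earlier results of these data known. Named genes were all 8 members, up to 4 called genes per list with the smallest adjusted p, and the 3 genes nearest each member (mean log2 CPM at least 1). Intervals are at 95%.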

Additional observations from a re-analysis of the deposited data

Results flagged for a closer look

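Differences of the BRM014 effect between groups passed their own test in 11 cases. Between batches of wild type, the change of Mmrn2 was less negative in the second by 1.67 log2 (adjusted p = 0.000673), which goes with a DMSO level of 31.8 CPM in the first batch and 9.95 in the second, and that of Icam1 was more positive by 0.46 (adjusted p = 0.0268). Between the Ino80ko label and wild type, the effect was more positive for Kdr by 1.65 (adjusted p = 0.00172) and for Robo4 by 1.03 (adjusted p = 0.0312). It was more negative there for Pecam1 (-0.97, adjusted p = 0.000699), Mmrn2 (-0.95, adjusted p = 0.00398) and Icam1 (-0.61, adjusted p = 0.00120). Between the Snf2hko label and wild type it was more negative for Vcam1 (-2.94, adjusted p = 1.97e-05), Mmrn2 (-1.90, adjusted p = 6.37e-07), Flt1 (-0.44, adjusted p = 0.0423) and Icam1 (-0.39, adjusted p = 0.00989).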

How the results depend on the processing

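Over 127 member calls, 1354 values from alternatives kept direction and call in 1266 cases, lost the call in 87 and reversed in 1; 68 of the 87 came from leaving out 1 library. The reversal was Robo4 at 3 h against DMSO 24 h alone (0.46 in place of -0.50), and Pecam1 at 6 h of washout, not called against DMSO 24 h, was at -0.28 against DMSO 1 h alone. With only the groups compared, 2 members were called in place of 5 for DMSO 24 h against 1 h, 2 in place of 4 for the analog at 24 h and 2 in place of 5 for washout 24 h against DMSO 24 h, where fewer samples estimate the spread. Without the filter on low counts, 1 was called in place of 2 for washout 1 h against DMSO 1 h. Leaving out 1 library gave 1 to 2 members for the batch difference, 3 to 5 for the Ino80ko difference, 2 to 4 for the Snf2hko difference, 2 to 5 for DMSO 24 h against 1 h, 2 for the analog at 24 h, 1 for washout 1 h against DMSO 1 h, 2 to 4 for washout 24 h against DMSO 24 h, and 0 to 1 for washout 30 min against BRM014 1 h. Washouts against DMSO 1 h alone were added after seeing the data.

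Same-numbered replicates did not deviate together (78 pairs of groups in the first batch, r from -0.11 to 0.14; 3 in the second, -0.01 to 0.04), and a replicate block moved no member across the threshold: 7 of 7 were called at 6 h of BRM014 with it and without it. No paired analysis was possible because wild type and knockout libraries of the second batch share no numbers, for the comparisons between genotypes. Vcam1 rests on under 10 counts in each vehicle library of wild type and Ino80ko, which limits the precision of its folds.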
